A study of Mus musculus with 2 samples.

Results

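Interferon gamma (Ifng), its receptor chains Ifngr1 and Ifngr2 and the chemokines Cxcl9 and Cxcl10 were followed in sorted immune cells from colorectal tumours of mice fed freely or on a fasting-mimicking diet. The 5 genes were chosen by name, with it already known in which cells their UMIs (unique molecular identifiers, each counting 1 captured RNA molecule) lay, so where each gene was detected is given as a description. They are 5 of 30905 genes in the deposited matrices, and all 5 had counts in both libraries.

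Male C57BL/6 mice were given azoxymethane, a carcinogen, as 1 intraperitoneal injection of 12 mg/kg, and then 3 cycles of 2.5% dextran sulfate sodium, a detergent that injures the colon lining, in drinking water, each of 7 days with 14 days of plain water. From the second cycle on, the mice ate either ad libitum or a fasting-mimicking diet (FMD). Tumour tissue of 4 mice per diet was pooled, CD45+ cells were sorted, and 1 single-cell 3′ library (10x, version 3 chemistry) was made from each pool. Both groups carried the carcinogen and the injury, the age of the mice was not given in the sources used here, and the protocol text also speaks of location-matched normal colons without saying whether these entered the pools.

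Each diet was thus 1 library. No test between diets was possible, differences between the pools cannot be told apart from differences between the diets, and every interval covers counting error only, not the clumping of UMIs in single cells. After filtering, 4839 ad libitum cells and 4566 FMD cells were kept, with median depths of 5496 and 5723 UMIs. They held 1305 and 1372 T and innate lymphocytes, 3147 and 2831 B and germinal center B-like cells, and 207 and 234 myeloid cells. The libraries shared 7 barcodes. The median depth of the myeloid cells was 4983 UMIs in the ad libitum library and 10841.5 in the FMD library, so shares of cells are also given after each cell was thinned to 1000 UMIs. Levels (CPM) are a gene's UMIs summed over the cells of a class, per 1000000 UMIs outside immunoglobulin and mitochondrial genes. Each log2 ratio divides the FMD level by the ad libitum level and has its exact 95% interval in brackets. Where a pair of values is given without names, the ad libitum value comes first.

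Interferon gamma is the cytokine by which activated T cells and natural killer cells alert macrophages and other cells. It binds a receptor made of Ifngr1, the chain that holds the ligand, and Ifngr2, the chain that completes signalling, and the kinases Jak1 and Jak2 then pass the signal on. Genes that respond carry gamma-activated sites (GAS) or interferon-stimulated response elements (ISRE) in their promoters or enhancers; Cxcl9 and Cxcl10 are among the induced genes, and both attract cells that carry the receptor CXCR3.

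The genes lie on 3 chromosomes in GRCm38. Ifng (ENSMUSG00000055170) occupies chr10:118441046-118445892 and Ifngr1 (ENSMUSG00000020009) chr10:19591949-19610229, both on the plus strand. Ifngr2 (ENSMUSG00000022965) occupies chr16:91547072-91565623, plus strand. Cxcl9 (ENSMUSG00000029417) at chr5:92321347-92328079 and Cxcl10 (ENSMUSG00000034855) at chr5:92346638-92348889 are neighbours on the minus strand. Art3, on the opposite strand at chr5:92331827-92414628, spans Cxcl10, and whether reads were counted by strand is not given in the sources used here.

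The promoters of the cytokine and of both chemokines are shown because each holds letters that interferon-activated or NF-kB factors are known to bind. Each run is the 250 bases before the RefSeq start (GRCm38.p6), 5′ to 3′ on the gene's strand, with motif matches in capitals: chr10:118440796-118441045, plus, for Ifng; chr5:92328080-92328329, minus, for Cxcl9; and chr5:92348890-92349139, minus, for Cxcl10.
Ifng: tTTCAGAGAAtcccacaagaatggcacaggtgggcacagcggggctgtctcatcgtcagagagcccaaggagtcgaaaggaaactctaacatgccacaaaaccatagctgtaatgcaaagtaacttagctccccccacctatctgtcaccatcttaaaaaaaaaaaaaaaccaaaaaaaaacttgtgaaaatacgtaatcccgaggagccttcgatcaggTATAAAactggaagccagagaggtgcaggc
Cxcl9: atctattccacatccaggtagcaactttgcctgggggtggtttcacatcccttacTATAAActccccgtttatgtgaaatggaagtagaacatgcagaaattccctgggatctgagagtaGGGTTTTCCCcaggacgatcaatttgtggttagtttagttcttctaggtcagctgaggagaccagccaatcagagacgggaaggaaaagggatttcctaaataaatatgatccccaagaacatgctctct
Cxcl10: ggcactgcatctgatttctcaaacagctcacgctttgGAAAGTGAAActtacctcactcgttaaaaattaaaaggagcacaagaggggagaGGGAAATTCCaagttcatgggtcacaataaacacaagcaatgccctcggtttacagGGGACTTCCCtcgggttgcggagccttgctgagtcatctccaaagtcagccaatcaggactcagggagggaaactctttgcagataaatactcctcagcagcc
All 5 genes matched a RefSeq promoter, and 4 motifs were searched on both strands. GAS, written TTCNNNGAA, reads the same on both strands and occurs in 7.02% of 32851 promoters of this length. Its match in Ifng is TTCAGAGAA, 249 to 241 bases before the start. The ISRE core, GAAA and GAAA with 2 bases between, occurs in 2.98% of promoters and in Cxcl10 as GAAAGTGAAA, 213 to 204 bases before the start. The kB-type motif, GGGA and CC with 4 bases between, occurs in 17.6%. Cxcl10 held it as GGGAAATTCC 159 to 150 bases before the start and as GGGACTTCCC, on both strands, 103 to 94 bases before it, and Cxcl9 held GGGTTTTCCC, a match on its minus strand, 130 to 121 bases before the start. TATAAA (12.4% of promoters) lay 30 to 25 bases before the start in Ifng and 195 to 190 in Cxcl9. In these windows Cxcl9 had no GAS or ISRE core match, and Ifng had no kB-type match. Ifngr2, whose promoter is not printed, held an overlapping pair of kB-type matches, and Ifngr1 none of the 4 motifs. A match is a description of the letters in the window and shows no binding.

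Across classes, named from fixed markers and called "-like", each gene had its own distribution. Ifng was a gene of few cells. Ifngr1 lay mainly in lymphocytes: T and innate lymphocytes held 77.9% and 75.4% of its UMIs. Ifngr2 lay mainly in B cells, whose classes held 70.6% and 66.1% of its UMIs and were 65.0% and 62.0% of the kept cells. Cxcl9 was almost restricted to myeloid cells, with only 8 and 7 UMIs elsewhere. Cxcl10 was shared, with 65.4% of its UMIs in myeloid cells under ad libitum feeding but 26.9% under FMD.

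**Figure D1:**
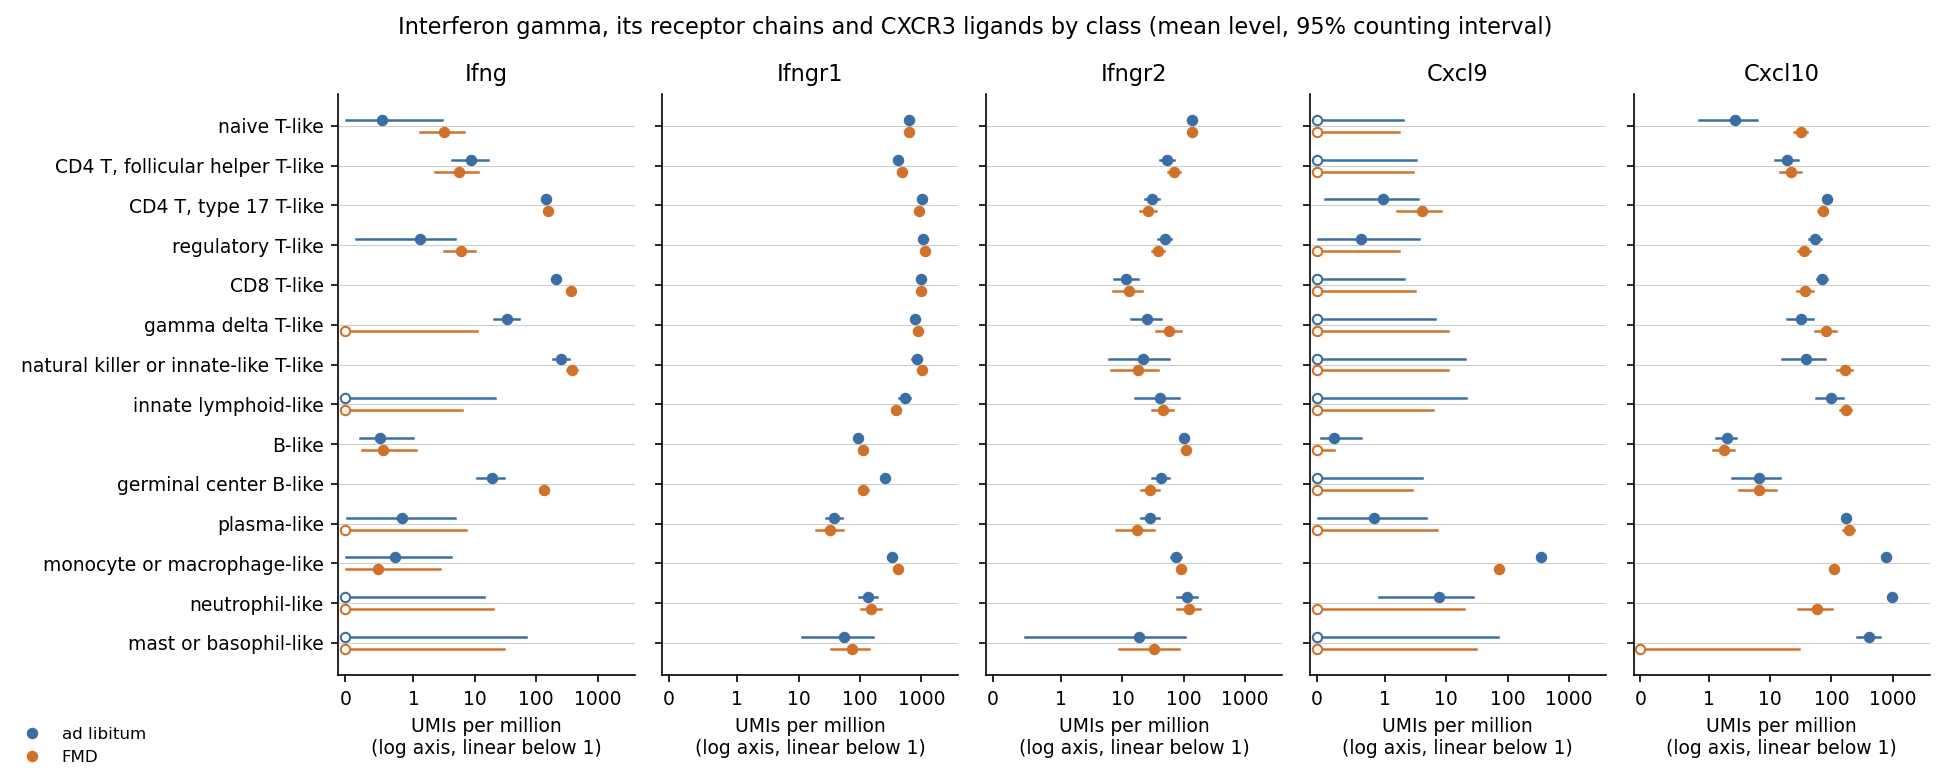
Level of each gene (CPM, log axis that is linear below 1) in 14 classes of cells, blue for the ad libitum and orange for the FMD library; bars are 95% counting intervals and open circles mark a count of 0. Ifngr1 is high in every T-like class, Cxcl9 stands out in monocyte or macrophage-like cells, and Cxcl10 in monocyte or macrophage-like cells is 763 CPM against 112 CPM.

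Ifng, the ligand, gave 786 UMIs in all kept ad libitum cells and 1054 in all kept FMD cells. In T and innate lymphocytes it gave 759 and 865 UMIs, or 81.3 [75.6, 87.3] and 87.7 [82.0, 93.8] CPM, a log2 ratio of 0.11 [-0.03, 0.25]. The libraries were alike in this summed level within counting error. An Ifng UMI was present in 195 of 1305 lymphocytes (14.9%) and in 162 of 1372 (11.8%). After thinning, the shares were 5.64% [4.44, 7.04] of 1295 and 5.25% [4.12, 6.58] of 1352 cells. B-like cells, which should lack the gene, had 8 UMIs in each library, and 0.0326% and 0.0364% of them were positive after thinning, at median depths of 5065 and 5210 UMIs against 7180 and 7205.5 in the lymphocytes. The lymphocyte share was thus far above the level that free RNA gave.

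Few cells carried much of the signal. Among positive lymphocytes the median count was 2 and 3 UMIs, the highest cell held 49 and 72, and 14 and 23 cells held 10 or more. The 5 highest cells supplied 17% and 26% of the UMIs. Without them in each library the log2 ratio was -0.054.

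By class, natural killer or innate-like T cells and CD8 T-like cells had the highest levels. The first of these classes was led by Il22 and Xcl1, and 1 of its 9 and 3 of its 22 Ifng-positive cells had a Cd3 UMI. In CD8 T-like cells Ifng gave 380 UMIs in 241 ad libitum cells and 437 in 160 FMD cells, or 210 and 370 CPM, with a log2 ratio of 0.82 [0.61, 1.02]. The share of positive CD8 T-like cells was 39% and 46.2%, or 12.9% [8.95, 17.8] and 21.4% [15.3, 28.6] after thinning, intervals that overlap. Natural killer or innate-like T cells had 46 UMIs in 9 of 27 cells and 130 in 22 of 55, or 253 and 383 CPM, a log2 ratio of 0.60 [0.10, 1.11]. Neither class reached a 2-fold difference in Ifng. Of genes with at least 100 UMIs, 0.104% were 2-fold higher and 0.104% lower in CD8 T-like cells, and 1.79% were higher and 1.28% lower in natural killer or innate-like T cells.

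CD4 T cells of the type 17 class, named for IL-17-producing helper cells, gave 301 and 271 Ifng UMIs, or 147 and 154 CPM, a log2 ratio of 0.07 [-0.17, 0.32]. Of its cells, 202 of 276 and 184 of 225 had no UMI of the IL-17 genes Il17a and Il17f. In that class 0.0661% of genes were 2-fold higher and 0.551% lower. The highest cell held 20 and 72 UMIs, and without it the counts were 281 and 199, a log2 ratio of -0.27 [-0.54, -0.0032]; the FMD cell lay in the naive CD8 group when lymphocytes were clustered alone. The other classes were low. Regulatory T-like cells had 2 and 13 UMIs, follicular helper T-like cells 10 and 7, and naive T-like cells 1 and 7, each in 1 cell. Gamma delta T-like cells had 19 UMIs in 3 ad libitum cells and 0 in FMD cells. Innate lymphoid-like and neutrophil-like cells had 0 in both libraries.

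Clustering the lymphocytes alone, with the 5 genes left out of the clustering, separated an Il17a-led and an Ifitm2-led group of CD4 T cells, and these differed between libraries. In the Il17a-led group Ifng gave 136 UMIs in 33 of 156 ad libitum cells (21.2% [15, 28.4]) and 4 UMIs in 4 of 92 FMD cells (4.35% [1.2, 10.8]). The highest cell held 14 UMIs in the first library and 1 in the second, and the levels were 113 and 5.10 CPM, a log2 ratio of -4.46 [-6.36, -3.07]. Median depth was 7802.5 and 8826.5 UMIs. In the Ifitm2-led group 46 of 116 (39.7%) and 51 of 129 cells (39.5%) were positive, with 146 and 189 UMIs, 175 and 209 CPM, and a log2 ratio of 0.26 [-0.06, 0.58]. The low value of the FMD library was therefore found in the first group and not in the second, although whether the groups' ratios differ was not tested. All 7 type 17 markers were detected in the Il17a-led cells of both libraries, summing to 2189 and 1247 CPM. In the Ifitm2-led cells they summed to 132 and 282 CPM, with Il17a at 0 in the ad libitum library. Il17a and Il17f together gave 5 and 8 UMIs in those cells. Of 8 neutrophil markers, 6 and 4 were detected in the Il17a-led cells, summing to 407 and 122 CPM, with Csf3r and Cxcr2 at 0 in both libraries. The part of these differences in the Ifng value was not tested.

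Ifng was also counted in cells with a UMI of Il17a or Il17f, the IL-17 cytokines. In the Il17a-led group 71 and 31 cells had such a UMI, and they held 22 of the 136 and 1 of the 4 Ifng UMIs. Gamma delta T-like cells supplied 55 and 31 of the 150 and 95 lymphocytes with such a UMI. Among all of these lymphocytes, 14 of 150 (9.33%) and 2 of 95 (2.11%) were Ifng-positive, with 53 and 2 Ifng UMIs. In type 17 class cells without an Il17a or Il17f UMI, 72 of 202 (35.6%) and 55 of 184 (29.9%) were positive, with 273 and 269 UMIs; 1 FMD cell held 72 of them. Without the highest cell of each library those counts were 253 and 197, a log2 ratio of -0.26 [-0.54, 0.01].

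Other lymphocyte groups leaned the other way. The Ccl5-led CD8 group, named for a chemokine of effector cells, had 315 and 358 Ifng UMIs in 64 of 113 and 53 of 88 cells, or 387 and 610 CPM, a log2 ratio of 0.66 [0.44, 0.88]. Its 5 highest cells held 49, 20, 19, 14 and 12 UMIs in the ad libitum library and 67, 33, 29, 24 and 21 in the FMD library. They were also the highest CD8 T-like cells. Ratios without these cells were not taken for the group or the class. The summed plasma cell markers in that group were 223 and 1230 CPM, and their part was not tested. The Xcl1-led innate-like T group had 59 UMIs in 28 of 121 cells and 98 in 25 of 72, or 65 and 178 CPM, a log2 ratio of 1.45 [0.97, 1.94]. The Il22-led innate group had 40 and 113 UMIs, or 229 and 371 CPM. Groups and classes divide the same cells. The Il22-led UMIs overlap those of the natural killer or innate-like T class, which is also led by Il22. That class had only 27 and 55 cells, against 121 and 72 in the Xcl1-led group. Among the cells with the most Ifng UMIs, those of the Ccl5-led and Xcl1-led groups were mostly of the CD8 T-like class. Their ratios thus largely divide again the UMIs behind the CD8 T-like ratio given above. In the naive CD8 group 15 and 76 UMIs lay in 4 and 2 cells, and 1 FMD cell held 72 of them.

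**Figure D2:**
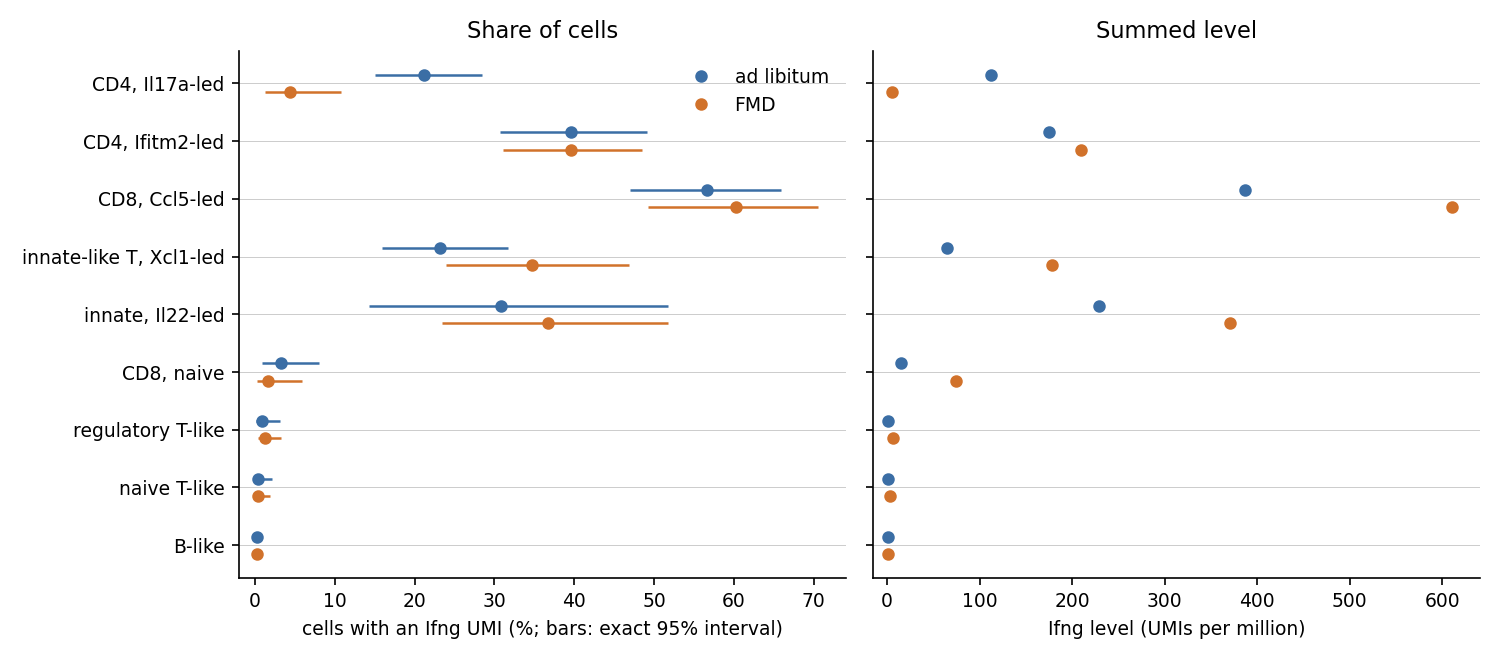
Share of cells with an Ifng UMI (left, percent, bars are exact 95% intervals) and Ifng level (right, CPM) in groups of lymphocytes and in B-like cells, blue for the ad libitum and orange for the FMD library. The Il17a-led CD4 cells are at 113 CPM against 5.10 CPM, while the Ifitm2-led CD4 cells are at 175 and 209 CPM.

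The higher FMD total over all kept cells lay largely in 1 cell. The germinal center B-like class held 17 Ifng UMIs in 4 ad libitum cells and 180 in 3 FMD cells, of which 177 were in 1 cell. That cell had 33 UMIs of Cd3 genes and 0 of the B cell genes Cd79a, Cd79b and Ms4a1. Of the 7 positive cells, 6 had Cd3 UMIs (15 to 38) and no UMI of those B cell genes, with 9 to 22 UMIs of the proliferation gene Mki67. These cells were grouped with germinal center B-like cells, but their own markers were those of T cells.

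Lymphocytes with an Ifng UMI (354 cells, median depth 7386) were set beside those without (2293 cells, 7182), both thinned and with both libraries together. The chemokine Ccl5 was detected in 60.7% of the first and 12.6% of the second, the cytotoxic granule gene Nkg7 in 37.6% and 10.1%, and Ccl4 in 16.4% and 0.87%. Xcl1, a chemokine of cytotoxic cells, was detected in 16.4% and 2.44%. Tbx21, the transcription factor T-bet that drives Ifng, was detected in 9.60% and 1.18%. Fewer positive than negative cells had Foxp3, the regulatory T cell factor (0.85% and 8.20%), Il10 (1.69% and 4.84%) or Il17a (2.54% and 4.84%). Ifngr1 was in 55.9% and 48.3%, and Ifngr2 in 0.56% and 6.02%.

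These shares mix classes, and within a class many of the gaps were smaller or turned. In CD8 T-like cells Ccl5 was in 97.0% of Ifng-positive and 88.4% of Ifng-negative cells, Nkg7 in 55.1% and 49.1% and Xcl1 in 21.6% and 17.2%, while Ccl4 was in 28.1% and 7.76%. In CD4 type 17 cells Il10 was in 4.38% and 0.833%, the opposite order to the pooled shares, and Il17a in 5.84% and 13.3%. Ifngr2 was rare in CD8 T-like cells with or without an Ifng UMI (0 of 167 cells and 0.862% of 232) and in natural killer or innate-like T cells (0 of 31 and 0 of 50), and in CD4 type 17 cells it was in 0.730% and 3.33%. Over 28 points, 14 classes in each library, the genes whose level followed Ifng most closely were Tbx21 (Pearson r 0.86), Il12rb2 (0.84), Fasl (0.83), Arl4d (0.80) and Baiap3 (0.78), while r with Ifngr2 was -0.72. These points share their libraries and depth.

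Of 12 genes listed as inducers of Ifng in lymphocytes, 11 reached 20 UMIs, and 0 of those 11 differed 2-fold, beside 0.326% of genes higher and 0.245% lower in lymphocytes. Their median log2 ratio was -0.06. Il12rb2, an IL-12 receptor chain, gave 243 and 152 UMIs (-0.76 [-1.06, -0.46]), and Il18rap, an IL-18 receptor chain, 496 and 371 (-0.50 [-0.70, -0.30]). Il12rb1 gave 151 and 232 UMIs (0.54 [0.24, 0.85]) and Tbx21 203 and 280 (0.39 [0.12, 0.65]). The receptor chains of IL-12 thus leaned in opposite directions. In CD4 type 17 cells Il18rap was 207 and 79 UMIs (-1.16) and Tbx21 54 and 79 (0.77).

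Among myeloid cytokines that favour Ifng production, Il23a, an IL-23 subunit, gave 88 and 14 UMIs (-3.17 [-4.10, -2.34]), and Tnf 618 and 320 (-1.46 [-1.66, -1.27]). Both were at least 2-fold lower, out of 3 such genes with at least 100 UMIs, where 2.17% of 4754 genes in myeloid cells were at least 2-fold lower and 1.03% higher. Il15 gave 47 and 34 UMIs (-0.98 [-1.66, -0.31]). Il12a was 12 in each library, Il18 24 and 29, and Ebi3 43 and 73 (0.25 [-0.31, 0.83]). Il12b, the subunit shared by IL-12 and IL-23, was too sparse for a value, with 9 and 3 UMIs.

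Ifngr1, the ligand-binding chain, was high in all T-like classes. It gave 10053 and 10877 UMIs in all kept cells, or 346 and 378 CPM, a log2 ratio of 0.13 [0.09, 0.17]. In the ad libitum library the order of classes was regulatory T (1044 CPM), CD4 type 17 (1038), CD8 T (973), natural killer or innate-like T (843), gamma delta T (778), naive T (625), innate lymphoid (535), follicular helper T (414), monocyte or macrophage (334), germinal center B (256), neutrophil (136), B (91) and plasma-like cells (37.7). The FMD library had the same outline, with regulatory T-like cells at 1164 CPM, CD8 T-like cells at 976, B-like cells at 110 and plasma-like cells at 32.5. The intervals of the first pair of classes overlap.

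Differences between libraries in Ifngr1 were small in most classes. T and innate lymphocytes as a whole had 838 and 832 CPM. CD4 type 17 cells had 1038 and 922 (-0.17 [-0.26, -0.08]), and monocyte or macrophage-like cells 334 and 416 (0.32 [0.15, 0.49]). All myeloid cells had 495 and 911 UMIs, or 285 and 367 CPM (0.37 [0.21, 0.53]). B-like cells had 91 and 110 CPM (0.27 [0.17, 0.38]). In germinal center B-like cells the level was 256 and 114 CPM (-1.18), but 5 cells supplied 58% and 55% of those UMIs, and this class held the T cell marker-positive cells described above.

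Ifngr2, the second chain, had another order. It gave 2329 and 2422 UMIs in all kept cells, or 80.2 and 84.1 CPM, a log2 ratio of 0.07 [-0.01, 0.15]. Naive T-like cells were highest, at 135 and 137 CPM, followed by neutrophil-like (113 and 121), B-like (102 and 108), monocyte or macrophage-like (75.3 and 89.3) and follicular helper T-like cells (54.2 and 70.0). Regulatory T-like cells had 48.6 and 38.1 CPM, innate lymphoid-like cells 40.3 and 45.3, germinal center B-like cells 42.2 and 28.4, CD4 type 17 cells 30.2 and 26.2, plasma-like cells 28.5 and 17.2, natural killer or innate-like T cells 22.0 and 17.7 and CD8 T-like cells 11.6 and 12.7. Natural killer or innate-like T, CD8 T-like and CD4 type 17 cells, the classes with the highest Ifng, were thus low in Ifngr2, as were plasma-like cells, which had 1 and 0 Ifng UMIs. Gamma delta T-like cells had 14 and 20 UMIs, or 25.0 and 58.3 CPM (1.22 [0.16, 2.32]).

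The chains parted within CD8 T cells as well. Naive CD8 cells had 96.3 and 85.8 CPM of Ifngr2 and the Ccl5-led CD8 cells 17.2 and 8.52 CPM. Ifngr1 UMIs per Ifngr2 UMI were 0.89 and 1.01 in B-like cells, 4.63 in naive T-like cells of each library, 34.4 and 35.2 in CD4 type 17 cells and 83.7 and 76.7 in CD8 T-like cells. This ratio compares classes, not the number of molecules of each chain, since capture may differ between the genes. After thinning, both chains were seen together in 1.41% and 1.53% of all cells. The genes closest to Ifngr1 over the 28 points were Orai1 (r 0.93) and Emb (0.91), and the closest to Ifngr2 reached only 0.62 to 0.63.

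**Figure D3:**
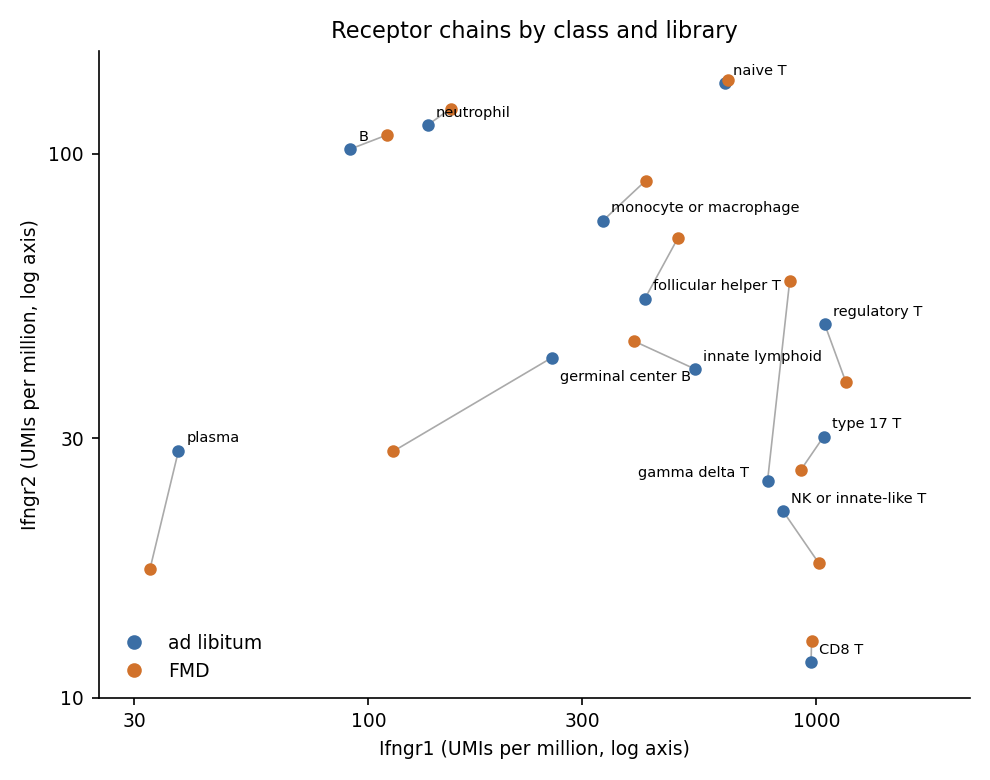
Ifngr1 (horizontal, CPM, log axis) and Ifngr2 (vertical, CPM, log axis) in 13 classes, with a grey line joining the ad libitum (blue) and FMD (orange) point of each class. CD8 T-like cells sit at the lower right with 973 and 976 CPM of Ifngr1 and 11.6 and 12.7 CPM of Ifngr2, and naive T-like cells at the top with 135 and 137 CPM of Ifngr2.

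Cxcl9 and Cxcl10, the CXCR3 ligands, were both lower in myeloid cells of the FMD library, and few cells carried them. Cxcl9 gave 472 and 153 UMIs, or 271 and 61.6 CPM, a log2 ratio of -2.14 [-2.41, -1.87]. Positive cells were 16 of 207 (7.73% [4.48, 12.2]) and 6 of 234 (2.56% [0.947, 5.50]), and after thinning 10 of 180 and 4 of 220. In the ad libitum cells the counts were 136, 95, 51, 40, 36, 28, 23, 23, 20, 6, 3, 3, 3, 2, 2 and 1. In the FMD cells they were 67, 50, 29, 5, 1 and 1. The ad libitum library had more positive cells and the highest of them, and the ranges of positive cells overlap. Without the highest cell of each library the ratio was -2.49, and without the 5 highest, which left 114 UMIs and 1, it was -7.37.

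Cxcl9 lay in a few kinds of myeloid cell. The macrophage-like group led by Krt15, Thbs1 and Lyz2 held 190 and 35 UMIs (-2.97). Krt15 is a keratin gene. Of the group's 706 ad libitum epithelial marker UMIs, 705 lay in 1 cell without a chemokine UMI, and its FMD cells had 4. Whether the Krt15 UMIs lay in that cell was not tested. A Ccr7 and Pgf-led group held 136 UMIs in 7 cells and 117 in 2 (-1.30). Mature dendritic-like cells, 11 and 8 cells, held 104 UMIs and 0. The type 1 dendritic-like group held 40 UMIs and 1, each in 1 cell. With so few cells per group, the place of the Cxcl9 UMIs in each library rests on single cells.

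Cxcl10 gave 1324 and 245 UMIs in myeloid cells, or 761 and 98.6 CPM, a log2 ratio of -2.95 [-3.15, -2.75]. Positive cells were 42 of 207 (20.3% [15, 26.4]) and 18 of 234 (7.69% [4.62, 11.9]), and after thinning 15% of 180 and 4.09% of 220. The highest cell held 285 and 69 UMIs, and 19 and 7 cells held at least 10. Without the 5 highest cells of each library the ratio was -3.53. B-like cells, a class that should hold little, had 1.97 and 1.8 CPM, with 0.195% and 0.219% positive after thinning.

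**Figure D4:**
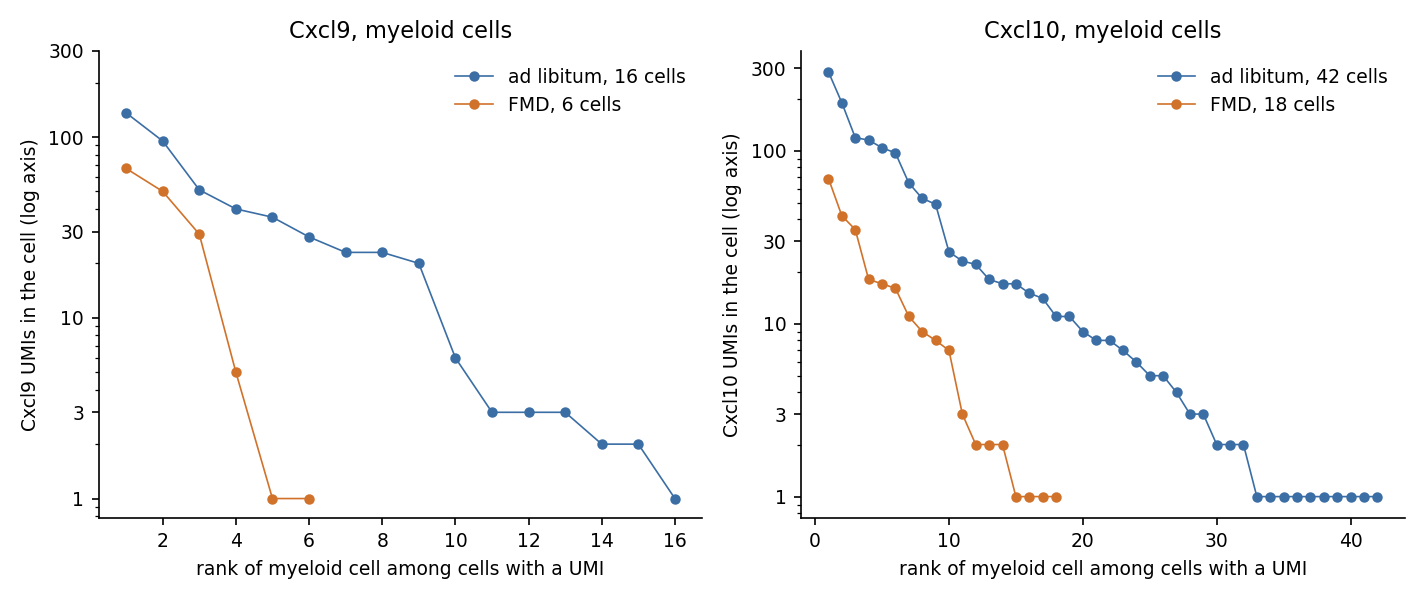
Cxcl9 (left) and Cxcl10 (right) UMIs in each myeloid cell with at least 1 UMI (log axis), ranked from the highest, blue for the ad libitum and orange for the FMD library. The ad libitum curve lies above the FMD curve at every shared rank, with 16 against 6 cells for Cxcl9 and 42 against 18 for Cxcl10.

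Both main myeloid classes had less Cxcl10 in the FMD library. Monocyte or macrophage-like cells gave 1043 and 234 UMIs, or 763 and 112 CPM (-2.77). Neutrophil-like cells gave 259 UMIs in 14 of 67 cells and 11 in 2 of 51, or 976 and 57.9 CPM (-4.07 [-5.09, -3.21]). The Ccr7 and Pgf-led group held 730 and 130 UMIs (-3.57) and the macrophage-like group 253 and 69 (-2.40). The type 1 dendritic-like group went the other way, with 5 UMIs in 1 cell and 34 in 2. Cells with both chemokines numbered 13 and 2, cells with Cxcl9 alone 3 and 4, and cells with Cxcl10 alone 29 and 16.

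Markers of other cells were present in the myeloid cells. All 6 epithelial markers were detected, summing to 457 and 58.0 CPM, but 705 of the 795 ad libitum UMIs lay in 1 cell of the macrophage-like group, which held no chemokine UMI. Without all cells that had at least 3 epithelial marker UMIs (16 and 14 cells), the Cxcl9 ratio was -2.31 and the Cxcl10 ratio -3.01. A B-like group of 32 and 10 cells was counted among the myeloid classes, and the summed B cell markers of all myeloid cells were 132 and 164 CPM. The summed T cell markers were 35.1 and 85.0 CPM, with all 8 detected in each library; their part was not tested.

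Outside myeloid cells Cxcl10 differed little in total: 702 and 667 UMIs, or 25.7 and 25.4 CPM, a log2 ratio of -0.02 [-0.18, 0.13]. T and innate lymphocytes gave 455 and 532 UMIs, or 48.7 and 54.0 CPM (0.15 [-0.04, 0.33]). Plasma-like cells gave 210 and 100 UMIs, or 176 and 191 CPM. Single classes leaned either way. Natural killer or innate-like T cells gave 7 and 56 UMIs, or 38.6 and 165 CPM (2.10 [0.96, 3.48]), and CD8 T-like cells 70.3 and 37.3 CPM (-0.91). Naive T-like cells gave 5 and 69 UMIs, or 2.66 and 31.5 CPM, of which 54 FMD UMIs lay in an Ifit-led group of 24 FMD cells that had 1 ad libitum cell.

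The closest genes to Cxcl9 over the 28 points were Vcan (r 0.97), a matrix gene, and the myeloid genes Clec4a1, F13a1, Cd209a and Ptpro (0.92 to 0.93). Those closest to Cxcl10 were Csrnp1 (0.87), Tspo (0.85), Metrnl (0.85), Pim1 (0.84) and Nfkbia (0.83). Cxcr3, the receptor of both chemokines, gave 466 and 472 UMIs in T and innate lymphocytes, a log2 ratio of -0.06 [-0.25, 0.13]. Its level was 89.2 and 100 CPM in CD4 type 17 cells, 72.5 and 56.8 in CD8 T-like cells and 70.0 and 67.4 in regulatory T-like cells. Cxcr3 in these lymphocytes thus differed by less than counting error.

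Among genes of receptor signalling, some were at like levels in myeloid cells and others were lower in the FMD library. Jak1 gave 334 and 518 UMIs (0.12 [-0.08, 0.32]), Jak2 433 and 581 (-0.09 [-0.27, 0.09]) and Irf9 130 and 187 (0.01 [-0.32, 0.34]). Irf1, an interferon-induced transcription factor, gave 637 and 249 (-1.87 [-2.09, -1.66]), and Socs1, the feedback inhibitor, 108 and 34 (-2.18 [-2.78, -1.61]). Both were at least 2-fold lower, beside 2.17% of genes in myeloid cells. Irf1 and Socs1 are also members of the induced list described next, so they are counted there again. Socs3, an inhibitor of other cytokine receptors, gave 519 and 421 UMIs (-0.82 [-1.01, -0.63]). In T and innate lymphocytes Irf1 lay at -0.04 [-0.14, 0.06] and Socs1 at -0.02 [-0.19, 0.15]. In B and germinal center B-like cells both were lower, Irf1 with 778 and 478 UMIs (-0.63 [-0.79, -0.46]) and Socs1 with 137 and 80 (-0.70 [-1.12, -0.29]).

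Genes known to be induced by interferon gamma, many of them also by type I interferon, were mostly lower in myeloid cells of the FMD library. Of 37 listed, 36 were in the gene list and 32 reached 20 UMIs; 26 of these were below 0, with a median log2 ratio of -1.34, where the median of all genes was 0.02. Of the 23 with at least 100 UMIs, 11 were at least 2-fold lower and 0 higher, set against the 2.17% and 1.03% given above. Guanylate-binding proteins and immunity-related GTPases act against microbes inside cells. Gbp2 gave 527 and 126 UMIs (-2.58 [-2.87, -2.30]), Gbp5 120 and 25 (-2.78 [-3.46, -2.15]) and Irgm1 242 and 53 (-2.71 [-3.16, -2.27]). Nos2, the inducible nitric oxide synthase, gave 46 and 2 (-5.04 [-8.13, -3.10]) and Ly6a, an interferon-induced surface protein, 458 and 99 (-2.72 [-3.05, -2.41]).

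Antigen presentation genes of the list were split. The peptide transporter Tap1 gave 405 and 319 UMIs (-0.86 [-1.08, -0.64]) and the immunoproteasome gene Psmb9 419 and 377 (-0.67 [-0.87, -0.46]). Cd274, which encodes PD-L1, gave 742 and 661 (-0.68 [-0.83, -0.53]). The class II genes were higher: H2-Aa gave 10314 and 18076 UMIs (0.30 [0.26, 0.33]), H2-Ab1 8971 and 15004 (0.23 [0.19, 0.27]) and Cd74 23711 and 41412 (0.29 [0.27, 0.31]), although Ciita, their activator, gave 175 and 164 (-0.61 [-0.92, -0.29]). Fcgr1, an Fc receptor, gave 36 and 75 (0.54 [-0.05, 1.16]). The GTPases Gbp9, with 8 and 19 UMIs (0.73 [-0.52, 2.13]), and Gbp8, with 8 and 14 (0.29 [-1.06, 1.75]), were also above 0, with intervals that include it.

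**Figure D5:**
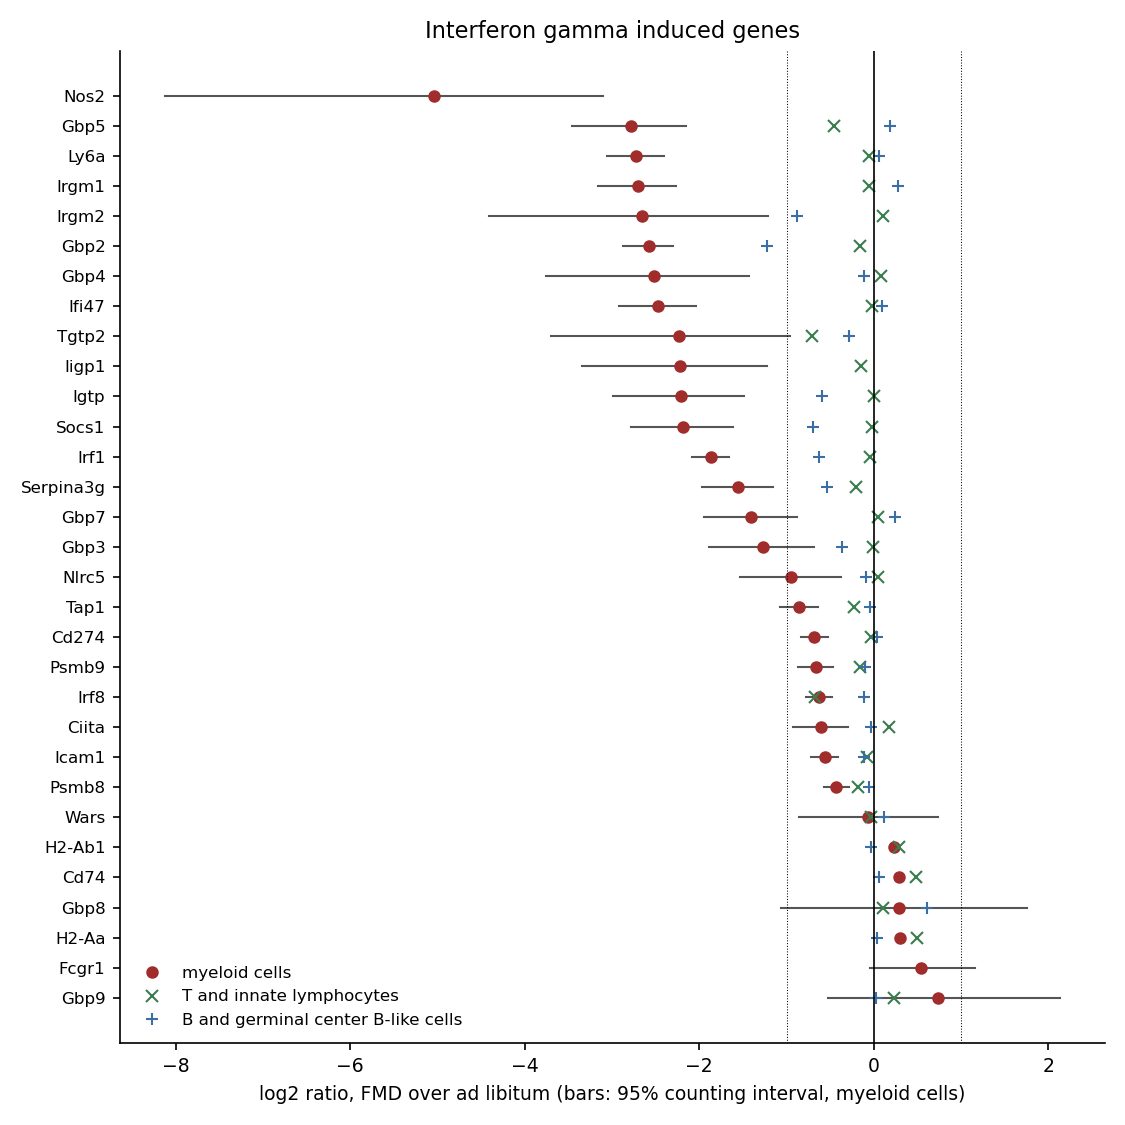
Log2 ratio of FMD over ad libitum for 31 interferon gamma induced genes in myeloid cells (red points with 95% counting intervals), with the same genes in T and innate lymphocytes (green crosses) and in B and germinal center B-like cells (blue plus signs); dotted lines mark 2-fold. The red points run from -5.04 (Nos2) to 0.73 (Gbp9), while the list medians in the other cells are -0.03 and -0.05.

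The list medians of lymphocytes showed no such shift, although single genes leaned either way. In T and innate lymphocytes 32 list genes reached 20 UMIs with a median of -0.03, and 0 of 31 differed 2-fold downward, beside 0.245% of genes. Irf8 gave 314 and 208 UMIs there (-0.67 [-0.93, -0.42]), and H2-Aa 463 and 688 (0.49 [0.32, 0.67]). In B and germinal center B-like cells 30 genes had a median of -0.05, and 0 of 25 differed 2-fold downward, beside 0.122%. Gbp2 gave 47 and 19 UMIs in those cells (-1.23 [-2.08, -0.43]), and Irgm1 227 and 261 (0.28 [0.02, 0.54]). Within the myeloid classes the medians were -1.54 over 18 genes in neutrophil-like cells and -1.42 over 31 genes in monocyte or macrophage-like cells. At 100 or more UMIs, 3 of 4 list genes in the first and 9 of 19 in the second were at least 2-fold lower, beside 2.3% and 2.06% of genes. The difference between myeloid cells and lymphocytes was not tested.

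Chemokine-positive cells did not hold the whole of it. In the 162 and 212 myeloid cells with no Cxcl9 or Cxcl10 UMI the list median was -0.70 over 26 genes, of which 21 were below 0. In the 45 and 22 cells with such a UMI it was -1.09. The classes differed among the cells without a chemokine UMI: the median was -1.43 over 14 genes in neutrophil-like cells but -0.53 over 25 genes in monocyte or macrophage-like cells. Gbp2 was 783 CPM in chemokine-positive and 126 in chemokine-negative ad libitum cells, and 199 and 31.0 in FMD cells, so it was higher in chemokine-positive cells of both libraries and lower in FMD cells of both kinds. Class II H2-Ab1 was flat across the same cells, at 5065 and 5194 CPM in ad libitum and 5851 and 6066 in FMD cells. Ifng itself was near background in these classes, with 1 UMI in monocyte or macrophage-like cells of each library.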

How the data were processed

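Single-cell gene counts were analysed from 2 libraries, 1 per diet. The deposited values are raw UMI counts per gene and barcode, read with the authors' gene and barcode lists. The submitters' processing notes name CASAVA 1.8, Cell Ranger 3.1.0, Seurat 2.3.4 and GRCm38, with no role for each, and filters before deposit are not given in the sources used here. The libraries held 6089 barcodes with 35712760 UMIs (ad libitum) and 5877 with 35280792 (FMD).

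With Python 3.11.15, scanpy 1.11.5, leidenalg 0.10.2, scipy 1.17.1 and numpy 2.4.6, barcodes with under 200 genes (475 and 441), over 20% mitochondrial UMIs (661 and 694) or markers of at least 2 of 3 lineage panels (114 and 176, taken as doublets) were removed. Cells of both libraries were clustered together on 2000 variable genes, without the 5 genes described, with 30 components, 15 neighbours and Leiden resolution 1. This gave 23 clusters, in 15 named classes; lymphocytes and myeloid cells were clustered again into 15 and 9 groups. Classes were named from fixed markers. UMIs were summed per library and class. Ratios carry exact conditional binomial 95% intervals and shares exact Clopper-Pearson intervals; both cover counting error only. A gene was given a ratio in a list from 20 UMIs over both libraries, and a 2-fold difference was counted from 100. A gene that passes mainly through 1 library had to differ, so counts over genes that passed describe these libraries only. Thinning drew 1000 UMIs per cell without replacement. The ratio code was tested on simulated data.

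The genes, lists, markers and alternatives were chosen with earlier results of these data known; the myeloid doublet panel, the second clustering, the split by Il17a or Il17f UMIs and the type 17 values without the highest cell were chosen after seeing the data. Named genes were the 5 genes, up to 4 highest and 4 lowest ratios of each list, a fixed set of partner genes, and the 5 genes with the highest Pearson r of log2(CPM + 1) over class-by-library points. Jak2, Gbp2, Tap1, Psmb9, Cd274, Ciita, H2-Ab1 and Cd74 fall outside that rule and were chosen after their values were seen. A gene that the lists hold is not reported here, but list medians and counts include it. Promoters come from RefSeq (GRCm38.p6) and gene positions from GENCODE vM21.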

Additional observations from a re-analysis of the deposited data

How the results depend on the processing

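Of 70 alternatives over 8 results, 54 stayed inside the range of the value reported and 16 moved outside it. A difference whose range excluded 0 was reversed in 0 alternatives, and 11 alternatives were chosen after seeing the data. The range was the counting interval, except for the list medians. There it came from the spread between list genes, -2.22 to -0.61 in myeloid cells, and all 14 and 10 list alternatives stayed inside it. The lower Cxcl9 and Cxcl10 of myeloid cells in the FMD library kept their direction in every alternative that gave a value. Cxcl9 (-2.14) was -2.49 without the highest cell of each library, -7.37 without the 5 highest and -3.73 with lineage taken from each cell's own markers. Cxcl10 (-2.95) was -2.57 with doublets kept, -4.73 with the 5 genes allowed in the clustering (281 and 11 UMIs), -3.64 with own-marker lineages and -3.53 without the 5 highest cells. Cxcl9 had no value in that clustering (2 and 0 UMIs), in which monocyte or macrophage-like cells stayed unnamed and neutrophil, mast or basophil and plasmacytoid dendritic-like cells alone counted as myeloid. The induced list in myeloid cells ranged from -1.63 to -0.70 over 14 alternatives, and in B classes from -0.05 to -0.02 over 10.

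The Ifng ratio of lymphocytes (0.11) had no stable sign: -0.091 with doublets kept, -0.38 and -0.062 at Leiden resolutions 0.5 and 2, 0.36 with own-marker lineages and -0.054 without the 5 highest cells. The Ifng UMIs counted were 335 and 291 at resolution 0.5 and 776 and 1044 with own-marker lineages, against 759 and 865 in the main setting. The log2 ratio of the thinned share of positive lymphocytes (-0.10) was 0.52 at 2 or more UMIs per cell. Ifngr1 (0.13) was 0.18 over all UMIs and 0.055 after thinning, and Ifngr2 (0.07) was -0.045 after thinning. The cause of these moves was not tested. No paired analysis was possible because each diet has 1 library, and no replicate could be left out. Depth limits the small classes most: a ratio from under 20 UMIs has an interval several units wide.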
